A study of Mus musculus with 2 samples.

Results

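The genes described here are 10 genes that build and remodel the actin cytoskeleton. They are the cytoplasmic actins Actb and Actg1, the thymosins Tmsb4x and Tmsb10, the profilin Pfn1, the cofilin Cfl1, the capping protein Capg, the bundling protein Fscn1 (fascin) and the MARCKS proteins Marcks and Marcksl1. They were chosen by name with earlier results of these data known, and all 10 were found among the 23444 gene symbols listed for each library. The RNA came from cultured bone marrow derived macrophages of FVB mice, cells grown from marrow precursors. One library was labelled RON TK-/- (RON deficient) and the other WT (RON proficient), and for both the labels state recombinant interleukin-4 at 10 ng/mL, given over 72 hours, in high glucose DMEM with serum. RON, the product of Mst1r, is a receptor tyrosine kinase of macrophages, and the comparison sets a library labelled RON deficient against one labelled RON proficient. There was 1 library per group, so no difference has a replicate check, no test was run, and higher or lower compares these libraries and not the conditions. The labels do not say how many animals or cultures a library holds.

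Actin filaments grow and shrink at their ends, and this turnover lets a macrophage spread, crawl and engulf particles. Thymosins hold actin monomers in reserve, profilin hands them to growing ends, cofilin cuts old filaments, and capping proteins close the fast-growing end. Fascin binds filaments into straight bundles, as in filopodia and in the dendrites of mature dendritic cells. MARCKS proteins sit at the inner face of the plasma membrane, bind actin, calmodulin and phosphoinositides, and leave the membrane when protein kinase C phosphorylates them.

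The activation genes of the WT labelled library went against its interleukin-4 label. Arg1, Chil3 and Retnla, genes that interleukin-4 induces, had 5041, 4604 and 3665 FPKM in the RON TK-/- labelled library. In the WT labelled library, Arg1 had 1.0 FPKM and the other two were listed at 0. FPKM counts sequenced fragments per transcript kilobase and is adjusted for library depth, so levels of different genes can be set side by side. Cxcl10, Tnf, Il1b and Nos2, genes of classical activation, had 0.23, 0.52, 0.20 and 3.63 FPKM in the RON TK-/- labelled library, against 4711, 1262, 823 and 1100 FPKM in the WT labelled library. The mannose receptor Mrc1 had 1016 FPKM in the RON TK-/- labelled library and 71.2 FPKM in the WT labelled library. Mst1r was listed at 0 in both, so it checked neither label. Both labels state the same interleukin-4 treatment, so an exchange of labels alone would still leave a library that goes against its stated treatment. The files do not tell whether a library had another treatment, whether the labels were exchanged, or both. Any of these would change what every ratio below compares. For the Mst1r transcript of 4706 bases, 3 reads would correspond to 0.0095 FPKM in the RON TK-/- labelled library and 0.011 FPKM in the WT labelled library. These limits cover counting error only, and they are higher for shorter transcripts. The depth implied by the deposited coverage was 67146863 reads for the RON TK-/- labelled library and 59770193 reads for the WT labelled library.

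All 7 macrophage markers were detected (at least 1 FPKM in a library), with a summed level of 6275 FPKM in the RON TK-/- labelled library and 4521 FPKM in the WT labelled library. Itgam had 185 FPKM in the RON TK-/- labelled library and 61.0 FPKM in the WT labelled library, while Fcgr1 and Mertk had 3.58 and 9.68 FPKM in the RON TK-/- labelled library, against 26.6 and 32.5 FPKM in the WT labelled library. Fibroblast markers were detected for 6 of 8 genes, with a summed level of 899 FPKM in the RON TK-/- labelled library and 674 FPKM in the WT labelled library. The collagens Col1a2 and Col3a1 had 433 and 171 FPKM in the RON TK-/- labelled library, against 407 and 48.5 FPKM in the WT labelled library. Pdgfra and Dcn had 24.3 and 13.9 FPKM in the RON TK-/- labelled library, against 8.93 and 8.85 FPKM in the WT labelled library. Lum and Thy1 were below 1 FPKM in both. Fibroblasts also express actin genes, and their part in the results below was not tested. In such bulk RNA, fewer cells of a type and less RNA per cell cannot be told apart. Of the other lists, 1 of 7 neutrophil markers (S100a8), 2 of 5 T cell markers (Lck and Cd2), 1 of 5 platelet lineage markers (Pf4), 0 of 5 B cell markers and 0 of 7 mast cell or eosinophil markers were detected. Cd3d, Cd3e, Cd3g and Mpo were at 0 in both libraries.

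Levels were compared as the log2 ratio of FPKM + 1, with the RON TK-/- labelled library over the WT labelled library, so negative ratios mean a lower level in the RON TK-/- labelled library. Of the 10 genes, 5 had a level lower by 2-fold or more, namely Marcksl1, Fscn1, Marcks, Tmsb4x and Actb, and 0 a level higher by 2-fold or more. The shares among all 11288 detected genes were 8.71% for lower and 25.6% for higher. Because the 10 genes were chosen with earlier results of these data known, such comparisons are description only. The median ratio of the 10 genes was -0.83, against 0.57 for all detected genes. Relative to that median of 0.57, 6 of the 10 were lower by 2-fold or more (Actg1 in addition), against 14.4% of all detected genes, and 0 were higher, against 8.38%. In the counts that follow, higher and lower mean by 2-fold or more. Of 193 genes that reached 500 FPKM in either library, a level chosen after the values were seen, 28.5% were lower. A further 11.9% were higher, and the median ratio was 0.37. Of the 10 genes, 8 were that abundant, and 3 of these (Marcksl1, Tmsb4x and Actb) were lower. Marcksl1 reached 500 FPKM only in the WT labelled library, and Tmsb10 and Capg only in the RON TK-/- labelled library. For such genes the cut itself partly fixes the direction. Fscn1 and Marcksl1 reached 50 FPKM only in the WT labelled library, and all 10 genes reached it in either library. Among the 1793 genes that did so, 20.7% were lower and 13.4% higher, and the median ratio was 0.28.

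**Figure D1:**
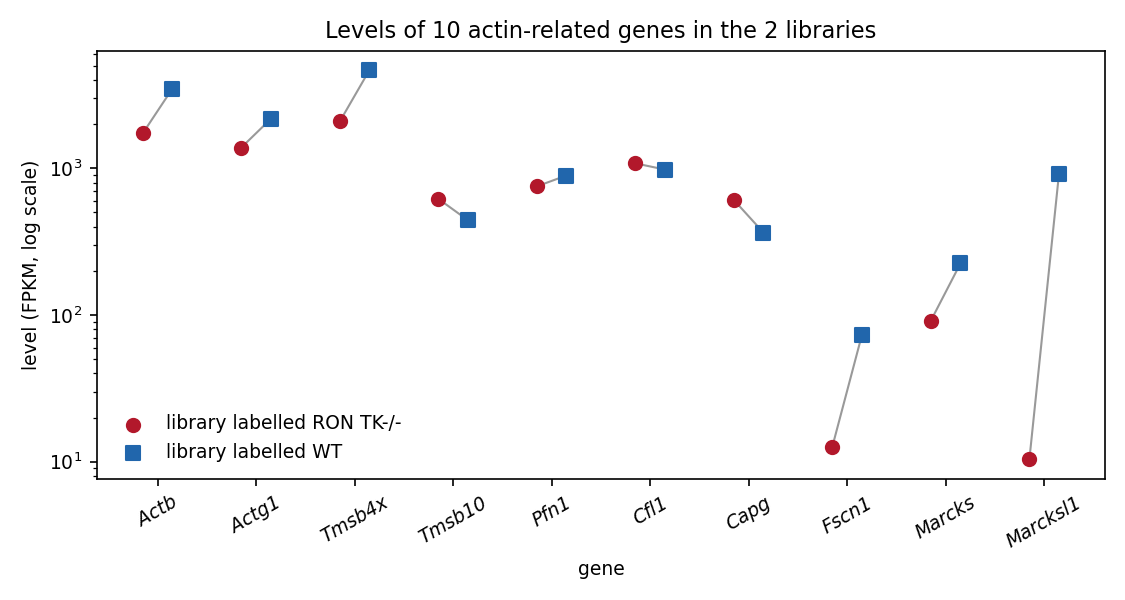
Level in FPKM on a log axis for each of the 10 genes, with a circle for the RON TK-/- labelled library and a square for the WT labelled library. Marcksl1 had 10.4 FPKM in the RON TK-/- labelled library and 911 FPKM in the WT labelled library, and most of the others lay within a few fold.

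**Figure D2:**
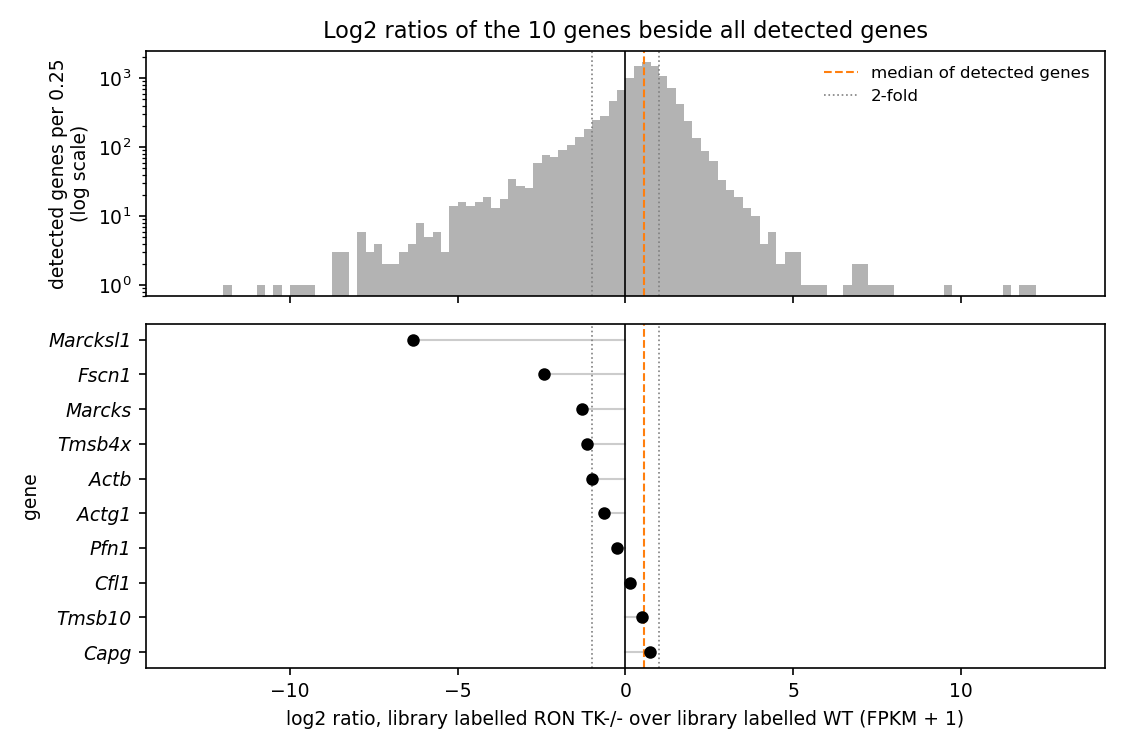
The upper panel counts all 11288 detected genes by log2 ratio (RON TK-/- labelled over WT labelled library) on a log axis, and the lower panel gives the 10 genes as points on the same scale. The dashed line is the median of detected genes (0.57) and dotted lines mark 2-fold. The points run from -6.32 for Marcksl1 to 0.74 for Capg.

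At 4-fold, Marcksl1 and Fscn1 were lower (2 of 10 genes, against 4.1% of all detected genes). At 1.5-fold, Actg1 joined the lower genes (6 of 10, against 12.5%), and Capg was the only one of the 10 that was higher (1 of 10, against 48.9%). The 10 genes together took 1.88% of all FPKM in the RON TK-/- labelled library and 3.33% in the WT labelled library. Read numbers estimated from coverage ran from 1107 for Marcksl1 in the RON TK-/- labelled library to 390751 for Actb in the WT labelled library. Counting intervals of the log2 ratios (95%, exact binomial) used these read numbers and not FPKM + 1, so they need not be centred on the reported ratios. They extended at most 0.086 to either side of their own midpoint, for Marcksl1, and 0.0076 for Actb. The reported ratios of Marcksl1, Fscn1, Marcks and Capg lay outside their intervals. For Marcksl1 the interval ran from -6.54 to -6.37, against a reported ratio of -6.32. The intervals cover counting error only, not differences between animals or cultures.

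Actb and Actg1 encode beta-actin and gamma-actin, the actins of nonmuscle cells. Their coding sequences, both 1128 bases long, were identical at 1000 bases (88.7%), and 125 of 376 codons differed. Only 4 codons encoded another amino acid, all of them between codons 2 and 10. The first 20 codons of each are shown because they hold every amino acid difference between the pair, in capitals. They are given in the coding direction from the GENCODE M21 transcripts (minus strand), on mm10, at chr5:142905627-142905686 for Actb and chr11:120348032-120348091 for Actg1.
Actb: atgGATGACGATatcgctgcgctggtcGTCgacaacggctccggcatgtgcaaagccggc
Actg1: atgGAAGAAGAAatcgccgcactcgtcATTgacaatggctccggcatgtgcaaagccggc

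Both actins were lower in the RON TK-/- labelled library. Actb, on chromosome 5 from 142903116 to 142906724 in the mm10 build, had 1734 FPKM in the RON TK-/- labelled library and 3489 FPKM in the WT labelled library, a log2 ratio of -1.01. It was the 20th most abundant gene in the RON TK-/- labelled library and the 6th in the WT labelled library. The counting interval of its ratio reached the 2-fold line. Actg1, on chromosome 11 from 120345690 to 120348484, had 1385 FPKM in the RON TK-/- labelled library and 2174 FPKM in the WT labelled library, a log2 ratio of -0.65. Summed over the pair, actin RNA was at 3119 FPKM in the RON TK-/- labelled library and 5663 FPKM in the WT labelled library. The ratio of Actb to Actg1 was 1.25 in the RON TK-/- labelled library and 1.61 in the WT labelled library.

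Reads of 50 bases cannot always place an actin transcript. Of the 50-base windows of the Actg1 transcript, 56.7% also occurred in a transcript of another annotated gene, and 51.1% in Gm12715 alone. For Actb it was 14.2%, with 9.57% in Lrrc58. Only 1.60% of Actb windows occurred in Actg1. The authors' treatment of reads with several placements is unknown here, so levels of such genes are uncertain.

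Of the other actins, the smooth muscle gene Acta2 had 26.1 FPKM in the RON TK-/- labelled library and 31.5 FPKM in the WT labelled library. Actg2, the enteric smooth muscle actin, had 2.76 FPKM in the RON TK-/- labelled library and 1.22 FPKM in the WT labelled library. The muscle actins Acta1 and Actc1, and Actbl2, were below 1 FPKM in both. Of the 4 detected actins, 1 was lower (Actb) and 0 higher, against 8.71% and 25.6% of all detected genes. Relative to the median of detected genes, 2 (Actb and Actg1) were lower, against 14.4%.

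Tmsb4x and Tmsb10 encode beta-thymosins, small peptides that bind actin monomers. Their coding sequences of 135 bases were identical at 95 bases (70.4%), and 27 of 45 codons differed, 11 of them in the amino acid. The whole coding sequences are shown because this closely related pair had ratios of opposite sign as deposited, though of the same sign once the median of detected genes was set to 0. Capitals mark the bases that differ. Each is read from the minus strand of mm10 out of GENCODE M21 transcripts, and the spans chrX:167207501-167208036 and chr6:72957618-72958012 include an intron that is left out.
Tmsb4x: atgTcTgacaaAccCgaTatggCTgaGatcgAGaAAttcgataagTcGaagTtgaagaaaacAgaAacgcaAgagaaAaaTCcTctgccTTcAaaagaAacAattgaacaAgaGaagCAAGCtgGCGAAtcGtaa
Tmsb10: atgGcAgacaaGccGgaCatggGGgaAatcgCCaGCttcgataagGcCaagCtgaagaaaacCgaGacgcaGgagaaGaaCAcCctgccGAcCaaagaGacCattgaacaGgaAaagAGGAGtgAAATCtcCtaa

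Tmsb4x, on chromosome X from 167207094 to 167209218, was the most abundant of the 10 genes in both libraries. It had 2087 FPKM in the RON TK-/- labelled library and 4663 FPKM in the WT labelled library, a log2 ratio of -1.16. None of its 50-base windows occurred in a transcript of another gene. Tmsb10, on chromosome 6 from 72957347 to 72958748, had 619 FPKM in the RON TK-/- labelled library and 443 FPKM in the WT labelled library. Its log2 ratio of 0.48 turned to -0.08 once the median of detected genes was set to 0. Tmsb4x was 3.37 times as abundant as Tmsb10 in the RON TK-/- labelled library and 10.5 times in the WT labelled library.

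Of the 3 transcript rows of Tmsb10, NM_025284 held 94.1% of the gene's FPKM in the RON TK-/- labelled library and 96.0% in the WT labelled library. Of the windows of the Tmsb10 transcript, 63.5% occurred in another gene's transcript, and 50.9% in Gm9844 alone, so its level is uncertain. Summed thymosin RNA was 0.868 times summed actin RNA in the RON TK-/- labelled library and 0.901 times in the WT labelled library. The sums thus kept nearly the same proportion while their members did not.

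Pfn1 encodes the main profilin. On chromosome 11 from 70651847 to 70654650, it had 753 FPKM in the RON TK-/- labelled library and 893 FPKM in the WT labelled library, a log2 ratio of -0.25, or -0.81 relative to the median of detected genes. Relative to summed actins, profilin RNA was at 0.242 in the RON TK-/- labelled library and 0.158 in the WT labelled library. Of 8 detected genes of the monomer binding list, which holds Tmsb4x, Tmsb10 and Pfn1, 1 was higher and 1 lower, and the median was 0.16. Shares over all detected genes were 25.6% for higher and 8.71% for lower. Relative to the median of detected genes, 2 were lower (Tmsb4x and Cap1) and 0 higher, against shares of 14.4% and 8.38%. The higher gene was the twinfilin Twf2, with 29.0 FPKM in the RON TK-/- labelled library and 12.6 FPKM in the WT labelled library. Its relative Twf1 had 52.1 FPKM in the RON TK-/- labelled library and 30.9 FPKM in the WT labelled library. Cap1, a cyclase-associated protein that recycles monomers, had 239 FPKM in the RON TK-/- labelled library and 342 FPKM in the WT labelled library.

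Cfl1, the nonmuscle cofilin, lies on chromosome 19 from 5490455 to 5494031. It had 1081 FPKM in the RON TK-/- labelled library and 980.3 FPKM in the WT labelled library. The log2 ratio of 0.14 changed sign with scaling, to -0.43 with the median set to 0 and to -0.14 with upper quartile scaling. Relative to summed actins, cofilin RNA was at 0.347 in the RON TK-/- labelled library and 0.173 in the WT labelled library. Of its windows 20.5% occurred in other genes' transcripts.

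Capg encodes a gelsolin relative of macrophages that caps filament ends without cutting them. It lies on chromosome 6 from 72544391 to 72562983 and had 608 FPKM in the RON TK-/- labelled library and 365 FPKM in the WT labelled library. Its log2 ratio of 0.74 was the highest of the 10 genes, and at 0.17 relative to the median it was at percentile 60.1 of detected genes. The rows of its 4 transcripts did not move alike. NM_001271395, which starts at 72549647, had 219 FPKM in the RON TK-/- labelled library and 40.6 FPKM in the WT labelled library, a log2 ratio of 2.41. It took 36.1% of Capg in the RON TK-/- labelled library and 11.1% in the WT labelled library.

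The row NM_007599, which starts upstream at 72544391, had 184 FPKM in the RON TK-/- labelled library and 180 FPKM in the WT labelled library. NM_001042534, which starts at 72549273, had 205 FPKM in the RON TK-/- labelled library and 144 FPKM in the WT labelled library. The fourth row was near 0 in both. Most of the Capg difference thus lay in the transcript with the most downstream start. The rows share their end coordinate, and reads common to several rows were divided among them by estimation, so a row is less certain than the gene.

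**Figure D3:**
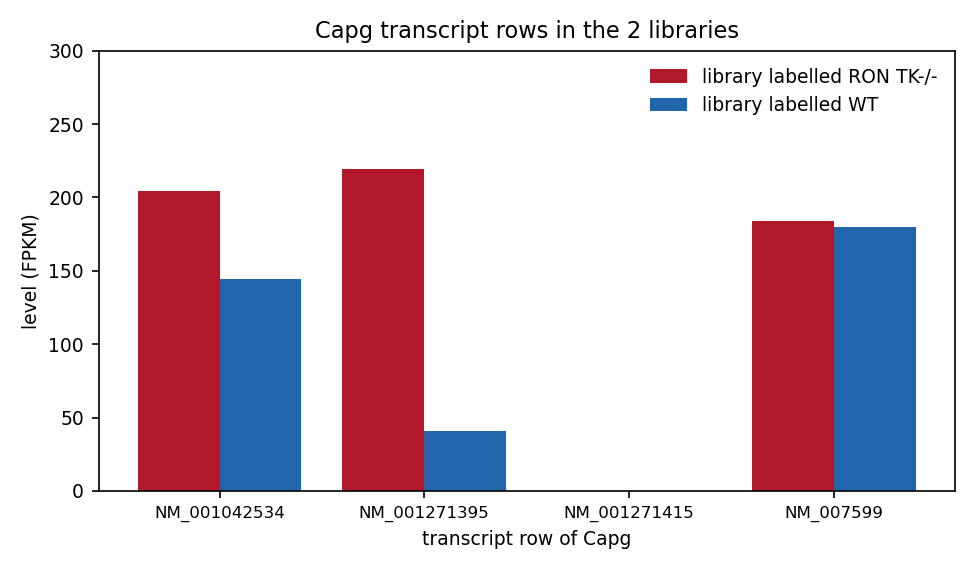
Level in FPKM of each Capg transcript row, with the RON TK-/- labelled library as the left bar and the WT labelled library as the right bar of each pair. NM_001271395 had 219 FPKM in the RON TK-/- labelled library and 40.6 FPKM in the WT labelled library, while NM_007599 had 184 FPKM in the RON TK-/- labelled library and 180 FPKM in the WT labelled library.

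The severing and disassembly list, which holds Cfl1 and Capg, was the only one of 12 actin lists with a median (0.71) above that of all detected genes as deposited. With the most abundant row of each gene alone, all 12 lists had a median below that of all detected genes. Of 23 detected genes, 8 were higher and 2 lower in the RON TK-/- labelled library, against 25.6% and 8.71% of all detected genes. Relative to the median, 4 were higher and 2 lower, against 8.38% and 14.4%. The 8 higher genes became 2 with a pseudocount of 5 and 4 with a minimum of 5 FPKM. Limk1, the kinase that switches cofilin off, had 32.8 FPKM in the RON TK-/- labelled library and 2.99 FPKM in the WT labelled library. Ssh2, a slingshot phosphatase that switches cofilin back on, had 4.64 FPKM in the RON TK-/- labelled library and 0.58 FPKM in the WT labelled library. The lower genes were the coronins Coro1a and Coro2a, with 33.6 and 10.5 FPKM in the RON TK-/- labelled library, against 123 and 37.8 FPKM in the WT labelled library. In the end capping list, which also holds Capg, 0 of 7 detected genes lay past 2-fold in either direction, and the median was 0.12. With the median of detected genes set to 0, 1 (Lrrc16a) was lower. Capza2 and Capzb, subunits of the heterodimeric capping protein, had 164 and 221 FPKM in the RON TK-/- labelled library, against 204 and 162 FPKM in the WT labelled library. Lrrc16a, which encodes a regulator of that protein, had 0.57 FPKM in the RON TK-/- labelled library and 1.46 FPKM in the WT labelled library.

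Fscn1 was among the genes with the largest differences. It lies on chromosome 5 from 142960355 to 142973189, next to Actb, with 53.6 kb and 0 listed genes between them. It had 12.7 FPKM in the RON TK-/- labelled library and 73.2 FPKM in the WT labelled library, a log2 ratio of -2.44 at percentile 2.91 of detected genes. None of its windows occurred in another gene's transcript. Fascin is also a marker of mature dendritic cells. Of 8 dendritic cell markers 1 was detected, and their summed level was 12.1 FPKM in the RON TK-/- labelled library and 21.2 FPKM in the WT labelled library. The detected one was Batf3, with 11.4 FPKM in the RON TK-/- labelled library and 18.9 FPKM in the WT labelled library. Clec9a was at 0 in both libraries, and Flt3 and Ccr7 were at 0 in the RON TK-/- labelled library and at 0.041 and 0.84 FPKM in the WT labelled library. The part of such cells in the Fscn1 difference was not tested.

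Fscn1 was not the only gene of the bundling and crosslinking list with less RNA in the RON TK-/- labelled library. Of 19 detected genes in this list, 4 were lower and 1 higher, with a median of 0.13. All detected genes had shares of 8.71% lower and 25.6% higher. Once the median of detected genes was set to 0, 6 were lower and 1 higher, against shares of 14.4% and 8.38%. Cnn3, an actin-binding calponin, had 22.3 FPKM in the RON TK-/- labelled library and 137 FPKM in the WT labelled library. Lcp1, the leukocyte bundling protein L-plastin, had 269 FPKM in the RON TK-/- labelled library and 673 FPKM in the WT labelled library. Eps8, which caps and bundles filaments, was the higher gene, with 14.1 FPKM in the RON TK-/- labelled library and 2.30 FPKM in the WT labelled library. Fscn2 and Fscn3, the fascins of retina and testis, were at 0 in both.

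Marcks and Marcksl1 share a basic stretch, the effector domain, whose lysines and arginines hold the protein at acidic membrane lipids and bind actin and calmodulin. Protein kinase C phosphorylates serines within it. The 25 codons with the most lysine and arginine are shown for each gene because they carry this domain, with serine codons in capitals. In Marcks they were codons 145 to 169 of 310, with 13 lysine or arginine and 5 serine codons. In Marcksl1 they were codons 86 to 110 of 201, with 12 lysine or arginine and 3 serine codons. The sequences come from GENCODE M21 on mm10, at chr10:37136531-37136605 on the minus strand for Marcks and at chr4:129514885-129514959 on the plus strand for Marcksl1.
Marcks: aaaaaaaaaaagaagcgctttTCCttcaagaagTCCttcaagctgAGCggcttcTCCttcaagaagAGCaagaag
Marcksl1: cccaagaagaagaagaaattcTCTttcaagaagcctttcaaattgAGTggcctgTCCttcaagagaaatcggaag

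Marcksl1 had the lowest ratio of the 10 genes. On chromosome 4 from 129513581 to 129515981, it had 10.4 FPKM in the RON TK-/- labelled library and 911 FPKM in the WT labelled library. The log2 ratio was -6.32, which on the scale of FPKM + 1 is 80.1-fold lower in the RON TK-/- labelled library and lies at percentile 0.301 of detected genes. It was the 5564th most abundant gene in the RON TK-/- labelled library and the 52nd in the WT labelled library. Its level in the RON TK-/- labelled library was well above 0 in reads, with 1107 estimated reads against 86504 in the WT labelled library. Of its windows 1.61% occurred in other genes' transcripts.

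Marcks, on chromosome 10 from 37133243 to 37138926, was lower by less. It had 91.5 FPKM in the RON TK-/- labelled library and 224 FPKM in the WT labelled library, a log2 ratio of -1.28. The order of the pair was opposite in the libraries. Marcks was 8.81 times as abundant as Marcksl1 in the RON TK-/- labelled library, and Marcksl1 was 4.06 times as abundant as Marcks in the WT labelled library.

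The list of MARCKS proteins and their partners had a median of 0.45, with 3 of 13 detected genes lower and 3 higher. Over all detected genes the shares were 8.71% and 25.6%. Set against the median of detected genes, 3 were lower and 1 (Add3) higher, beside shares of 14.4% and 8.38%. Besides Marcksl1 and Marcks, the lower gene was Basp1, which encodes another membrane protein. Basp1 had 93.1 FPKM in the RON TK-/- labelled library and 440.3 FPKM in the WT labelled library. Gap43, also in this list, was below 1 FPKM in both libraries. The higher genes were the adducin Add3 and the protein kinase C genes Prkch and Prkci. Add3 had 17.8 FPKM in the RON TK-/- labelled library and 2.50 FPKM in the WT labelled library. Prkci and Prkch had 10.4 and 9.02 FPKM in the RON TK-/- labelled library, against 2.96 and 3.14 FPKM in the WT labelled library. Prkcd, another kinase of the family, had 189 FPKM in the RON TK-/- labelled library and 96.1 FPKM in the WT labelled library.

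The order of levels within the 10 genes changed only in the place of Marcksl1. Tmsb4x, Actb, Actg1 and Cfl1 were the 4 most abundant in both libraries, in that order. Marcksl1 was the fifth in the WT labelled library and the last in the RON TK-/- labelled library. The neighbours Tmsb10 and Capg, at 619 and 608 FPKM in the RON TK-/- labelled library and 443 and 365 FPKM in the WT labelled library, stayed next to each other. With no replicates, the spread around these orders is unknown.

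Genes below 1 FPKM in both libraries, and symbols of clones, predicted genes and small RNAs, were left out of a search for similar levels. Among the rest, genes with the most similar levels were found by the Euclidean distance of log2(FPKM + 1) over the 2 libraries. For Marcksl1 it was Cd40, with 10.1 FPKM in the RON TK-/- labelled library and 839 FPKM in the WT labelled library, at a distance of 0.125. The nearest gene to Fscn1 was Ebi3, with 12.5 FPKM in the RON TK-/- labelled library and 76.7 FPKM in the WT labelled library, at 0.0696. For Actb it was B2m at 0.0375, for Actg1 H2-D1 at 0.358, for Marcks Tapbp at 0.170 and for Tmsb4x Actb at 0.496. Tmsb10 lay nearest Rps3a1 (0.0427), Capg nearest Rpl6 (0.0792), Pfn1 nearest Rps20 (0.204) and Cfl1 nearest Pkm (0.0505). Over 2 libraries such likeness is a description of level only.

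Filament nucleators and elongators formed 2 lists. Of 24 detected genes of the Arp2/3 complex and the WASP and WAVE proteins, which start branches, 3 were higher and 1 lower, with a median of 0.31. Shares over all detected genes were 25.6% for higher and 8.71% for lower. Relative to the median of detected genes, 1 was higher and 6 lower, against shares of 8.38% and 14.4%. Wipf1, the partner of WASP, had 32.0 FPKM in the RON TK-/- labelled library and 9.31 FPKM in the WT labelled library. Abi3, of the WAVE complex, and Arpc5l, an Arp2/3 subunit, had 3.54 and 29.0 FPKM in the RON TK-/- labelled library, against 0.81 and 11.2 FPKM in the WT labelled library. The lower gene was Cyfip2 of the WAVE complex, with 5.48 FPKM in the RON TK-/- labelled library and 16.1 FPKM in the WT labelled library. Formins and elongation factors had a median of 0.15, with 1 of 14 higher and 2 lower as deposited, and 1 higher and 3 lower (the formin Fmnl2 in addition) relative to the median of detected genes. The Ena/VASP proteins Vasp and Evl went opposite ways, with 30.1 and 44.1 FPKM in the RON TK-/- labelled library, against 136 and 9.99 FPKM in the WT labelled library. The other lower gene was the formin Fhod3, with 0.13 FPKM in the RON TK-/- labelled library and 1.65 FPKM in the WT labelled library.

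The small GTPases that set which actin structures form, with their kinases, had a median of -0.13, with 5 of 22 detected genes lower and 2 higher. Among all detected genes 8.71% were lower and 25.6% higher. Relative to the median of detected genes the counts were 8 lower and 1 higher, against shares of 14.4% and 8.38%. Rnd1 and Rnd3, which oppose RhoA, had 4.54 and 3.56 FPKM in the RON TK-/- labelled library, against 165 and 32.5 FPKM in the WT labelled library. Rhob had 104 FPKM in the RON TK-/- labelled library and 497 FPKM in the WT labelled library. Rhoh and Rhoj were the other lower genes, with 3.90 and 3.11 FPKM in the RON TK-/- labelled library, against 20.7 and 8.20 FPKM in the WT labelled library. The higher genes, Rhod and Rhov, were at 4.47 and 4.62 FPKM in the RON TK-/- labelled library, against 1.10 and 0.29 FPKM in the WT labelled library. The canonical switches Rhoa, Rac1 and Cdc42 had log2 ratios of 0.44, 0.19 and 0.15.

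Tropomyosins and myosins had a median of -0.10, with 1 of 17 detected genes lower and 3 higher, against 8.71% and 25.6% of all detected genes. Myo10, the motor of filopodia, had 7.18 FPKM in the RON TK-/- labelled library and 55.1 FPKM in the WT labelled library. Myl9, Myo1f and Myo5a were higher, at 13.2, 75.3 and 60.7 FPKM in the RON TK-/- labelled library, against 4.06, 31.9 and 26.2 FPKM in the WT labelled library. Adaptors that tie actin to integrins had a median of -0.09, with 3 of 17 lower and 2 higher. The kinase Ptk2b had 15.0 FPKM in the RON TK-/- labelled library and 95.3 FPKM in the WT labelled library. Zyx and Vcl, which encode zyxin and vinculin, had 101 and 23.1 FPKM in the RON TK-/- labelled library, against 279 and 64.6 FPKM in the WT labelled library. The higher genes were the kindlin Fermt3 and the parvin Parvg, with 92.8 and 46.1 FPKM in the RON TK-/- labelled library, against 41.8 and 19.9 FPKM in the WT labelled library. Relative to the median of detected genes, 4 myosin or tropomyosin genes and 7 adaptor genes were lower, and 0 of either list higher. The shares of all detected genes on that scale were 14.4% for lower and 8.38% for higher.

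**Figure D4:**
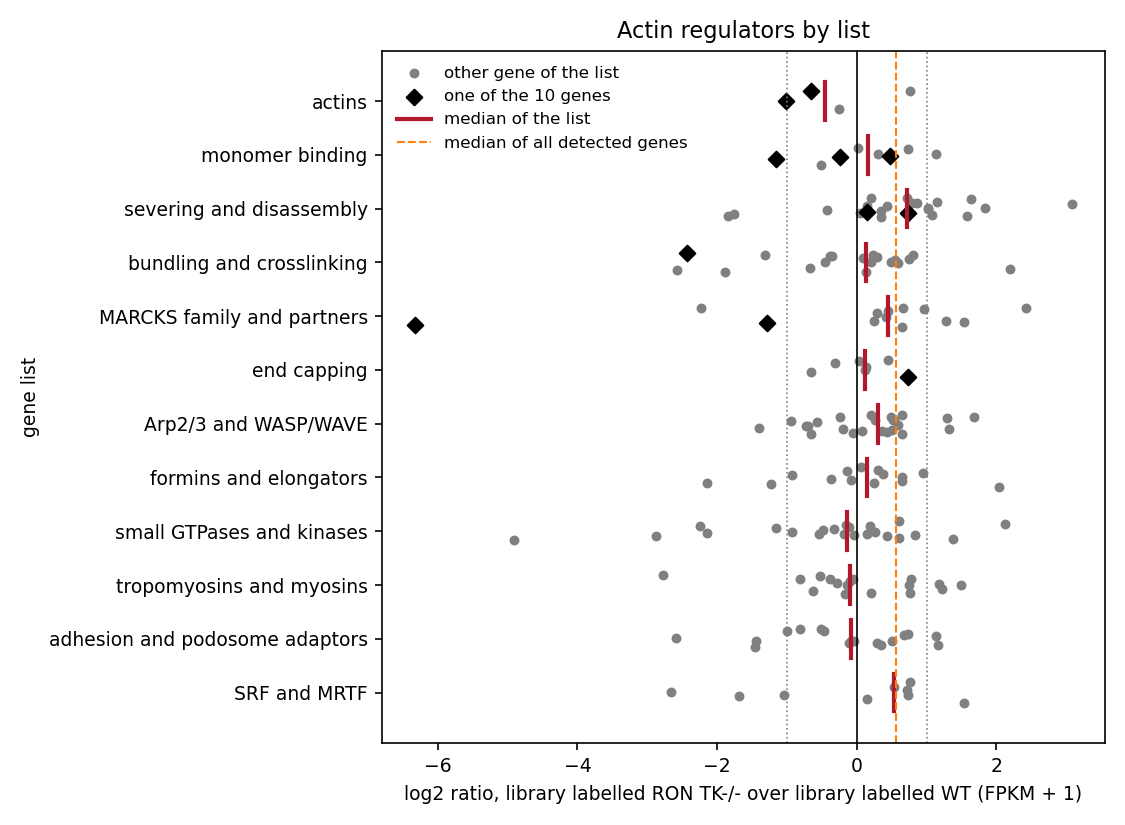
Log2 ratio (RON TK-/- labelled over WT labelled library) of each detected gene in 12 lists of actin genes and regulators, with the 10 genes as diamonds and each list's median as a bar. The dashed line is the median of all detected genes (0.57) and dotted lines mark 2-fold. All list medians but that of severing and disassembly lay to the left of the dashed line.

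Serum response factor (SRF) drives actin genes with its cofactors of the MRTF family, which free actin monomers hold inactive, and it binds a sequence called the CArG box. Srf had 9.46 FPKM in the RON TK-/- labelled library and 8.46 FPKM in the WT labelled library. The cofactor genes, listed as Mkl1 and Mkl2, had log2 ratios of 0.76 and 0.53. Of 9 detected genes in this list 3 were lower and 1 higher as deposited, with a median of 0.53. The shares over all detected genes were 8.71% and 25.6%. Relative to the median of detected genes, 3 were lower and 0 higher, against shares of 14.4% and 8.38%. Ctgf, Egr1 and Cyr61 were lower, with 12.6, 2.38 and 18.2 FPKM in the RON TK-/- labelled library, against 85.4, 9.87 and 38.5 FPKM in the WT labelled library. Fhl2 was higher, with 25.2 FPKM in the RON TK-/- labelled library and 8.04 FPKM in the WT labelled library.

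Promoters of RefSeq (GRCm38.p6, the assembly of mm10) were found for 8 of the 10 genes, as the 250 bases before a gene's start. Actb and Marcks were not among those searched. The Capg window lay before the start of NM_001271395, and windows before the other Capg starts were not searched. The CArG box was searched on both strands, and 1.47% of 32851 windows held it. Among the windows of the 8 genes it occurred in Actg1 alone. The 60 bases around it, at chr11:120348551-120348610 on the minus strand, are shown with the box in capitals.
Actg1: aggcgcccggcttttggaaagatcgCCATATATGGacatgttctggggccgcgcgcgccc
The letters TTC and GAA with 4 bases of any kind between them (5.85% of windows) occurred in the Pfn1 window alone, 161 bases before the start. Neither TGANTCA (6.75%) nor the NF-kB site (3.90%) occurred in a window of the 8 genes, which says only that these letters are not in these windows. A match is no evidence of binding.

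Actb is also widely used to normalise expression, so it was set beside other genes used in that way. Of 14 such genes, 1 was lower (Actb) and 2 higher as deposited, with a median of 0.37. Among all detected genes 8.71% were lower and 25.6% higher. Relative to the median of detected genes 3 were lower (Actb, B2m and Hprt) and 1 higher, against shares of 14.4% and 8.38%. The transferrin receptor Tfrc, a higher gene, had 201 FPKM in the RON TK-/- labelled library and 21.7 FPKM in the WT labelled library. B2m had 1770 FPKM in the RON TK-/- labelled library and 3434 FPKM in the WT labelled library. Gapdh had 1838 FPKM in the RON TK-/- labelled library and 1392 FPKM in the WT labelled library. The ratio of Actb to Gapdh was 0.944 in the RON TK-/- labelled library and 2.51 in the WT labelled library.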

How the data were processed

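RNA was measured in 2 libraries, sequenced per the labels' protocols as single 50-base reads from a TruSeq kit. The authors deposited FPKM values and coverage (a read depth signal, the mean per base) per RefSeq transcript, in Cufflinks' column layout, per the file headers. The build mm10 and DESeq stand without a role in the submitters' processing notes. The aligner was not given in the sources used here. Rows of a gene symbol were summed, and log2 ratios used a pseudocount of 1 on genes that reached 1 FPKM in either library, with no further scaling. The median ratio was 0.57, so 2-fold counts are also given relative to it. Depth was implied from coverage over FPKM. Every row had the status OK, and none of the 14 normalising genes was at 0. The ratio and counts were checked on simulated data. Shared 50-base windows were counted over GENCODE M21 transcripts on both strands, using the coding transcript nearest in length to a gene's most abundant row. Starts counted from 0 in the files were raised by 1. No source used here names a strand setting, so overlapping genes cannot be told apart. Python 3.11.15, pandas 2.3.3, numpy 2.4.6, scipy 1.17.1 and Biopython 1.88 were used.

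The 10 genes and all lists were chosen with earlier results of these data known. Named were these 10 genes, Mst1r, the activation genes, the gene nearest in level to each of the 10, from other lists the 3 detected genes with the largest absolute ratios, every gene of a count of 5 or fewer, and, chosen after their values were seen, the others. Values of some genes that this rule names are not reported here, though counts and medians include them. Another symbol was used for 10 list entries, and 1 marker (Ly6g) was not found. Alternatives were pseudocounts of 0.1 and 5, no minimum or 5 FPKM, median, TPM and upper quartile scaling, the most abundant row alone, and thresholds of 1.5-fold and 4-fold.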

Additional observations from a re-analysis of the deposited data

How the results depend on the processing

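The count of genes at least 2-fold lower was 5, and 5 or 6 under each alternative that kept the 2-fold threshold, while the count at least 2-fold higher stayed at 0. At 1.5-fold 1 gene was higher, and at 4-fold 2 were lower. The number of lists with a median below that of all detected genes was 11 of 12 and was 12 with the most abundant row alone, 10 or 11 under the others, but 3 with no minimum, where genes listed at 0 in both libraries set the median of all genes to 0. Coverage scaled to the implied depth, an alternative chosen after seeing the data, gave 5 lower and 0 higher. Ratios of 8 of the 10 genes kept their sign under every alternative run. Marcksl1 ranged from -6.89 to -5.90, Fscn1 from -3.003 to -2.14, Marcks from -1.85 to -1.25, Tmsb4x from -1.73 to -1.16 and Actb from -1.57 to -1.01. Cfl1 ranged from -0.43 to 0.14 and Tmsb10 from -0.08 to 0.49, and both changed sign with the median set to 0, as did Cfl1 with upper quartile scaling. With the most abundant row alone Capg was at 0.03. Of 264 other list counts under alternatives, 197 stayed within 1.5 times and 67 did not. No paired analysis was possible because each group has 1 library, and leaving out a library was impossible for the same reason. Depth limits none of the 10 genes, but the spread between animals or cultures is unknown.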
